A study of Mus musculus with 20 samples.

Results

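The genes described are those that encode the 5 complexes of mitochondrial oxidative phosphorylation in the nucleus. A gene entered when a probe set annotated to it alone had a symbol starting with Ndufa, Ndufb, Ndufc, Ndufs, Ndufv, Sdha, Sdhb, Sdhc, Sdhd, Uqcr, Cox4i, Cox5, Cox6, Cox7, Cox8 or Atp5. This gave 93 genes of the 19751 on the array, namely 43 for complex I, 8 for complex II, 8 for complex III, 17 for complex IV and 17 for complex V. The prefixes admit more than structural subunits. By their textbook roles, 73 of the genes encode subunits, 11 encode assembly factors of complexes I and II (the Ndufaf and Sdhaf genes), 8 encode isoforms or paralogues mainly expressed in particular tissues, and 1, Cox7a2l, encodes a protein that joins complexes into supercomplexes. Ndufa4 carries a complex I symbol and is now placed with complex IV. Of the 93 genes, 91 passed the filter on low values and were tested; Cox7b2 and Cox8b did not.

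The study measured gene expression on microarrays in microglia that had been isolated by FACS from brains of mice aged 8.5 months; microglia are the brain's own macrophages. The mice were littermates of 4 genotypes: 4 WT, 4 Trem2-/-, 5 5XFAD and 6 Trem2-/-5XFAD samples were used, 19 arrays in all. 1 more array had a title and a genotype label that disagreed (WT against Trem2-/-) and entered no group. All mice were perfused with PBS, brains were dissociated enzymatically, cells were sorted straight into lysis buffer, and probes were made from 2 ng of total RNA. Trem2 is a lipid-sensing receptor of microglia. The 5XFAD transgenes are driven by the neuronal Thy1 promoter, so the microglia are exposed to amyloid that neurons make, and the Trem2 deletion is present in every cell of the body. Values are log2 of the deposited intensity plus 1, differences are on the same log2 scale with the standard error of the fit, and a gene is called where limma's adjusted p, corrected over all 12728 genes tested, was below 0.05. The labels number the samples and do not say whether each came from a separate mouse, so the p-values measure the spread between these samples. In sorted bulk RNA, a change in the make-up of the sorted cells and a change in RNA per cell cannot be told apart.

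Oxidative phosphorylation turns the electrons of NADH and succinate into ATP. Complex I (NADH dehydrogenase) and complex II (succinate dehydrogenase, also an enzyme of the citric acid cycle) pass electrons to ubiquinone. Complex III hands them to cytochrome c, complex IV (cytochrome c oxidase) passes them to oxygen, and complex V (ATP synthase) uses the proton gradient that complexes I, III and IV build. Most subunits are encoded in the nucleus and a few in the mitochondrial genome, so both genomes supply each complex except complex II, which is wholly nuclear. Many of the nuclear subunits are small accessory proteins around a conserved catalytic core. In macrophages and microglia the balance between this pathway and glycolysis is known to shift with activation.

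The genotype labels were checked first on Trem2. Its level was 11.31 ± 0.12 (SD, n = 4) in WT, 11.68 ± 0.14 (SD, n = 5) in 5XFAD, 6.96 ± 0.08 (SD, n = 4) in Trem2-/- and 7.05 ± 0.29 (SD, n = 6) in Trem2-/-5XFAD, and groups with and without the gene did not overlap. On the array with conflicting labels Trem2 was at 11.08. That was just below the WT range of 11.14 to 11.39 and far above the Trem2-/- range of 6.84 to 7.02. The 9 microglial markers measured had a mean level between 10.95 and 11.54 on every array, and 6 of them were lower in 5XFAD than in WT, whereas 4 were higher in Trem2-/-5XFAD than in 5XFAD. Several arrays stood apart in transcripts of other sources. Salivary gland transcripts (4 measured) had a mean level of 6.28 and 6.49 on WT 1 and WT 2 and of 6.10 and 5.96 on 5XFAD 1 and 5XFAD 2. They were lower but raised on Trem2-/- 3 (4.78), Trem2-/- 2 (4.04) and WT 4 (3.87), and between 2.73 and 3.62 on the other arrays with a group. The 9 astrocyte markers averaged 4.94 to 5.14 in WT, 4.78 to 5.00 in Trem2-/-, 5.41 to 5.83 in 5XFAD and 4.99 to 5.29 in Trem2-/-5XFAD, so 5XFAD lay above the other groups. Gfap was at 5.96 to 7.08 in 5XFAD and 4.03 to 4.38 in WT, S100b at 6.75 to 7.61 against 5.12 to 6.40 and Slc1a2 at 5.97 to 6.82 against 5.26 to 5.95, all without overlap. Slc1a3 was lower, at 6.90 to 7.31 in 5XFAD and 7.77 to 8.14 in WT, and Aqp4 and Aldh1l1 were at or below 4.26 on every array with a group. Of the 6 astrocyte markers tested, 2 were called higher and 1 lower in 5XFAD than in WT, and 3 lower in Trem2-/-5XFAD than in 5XFAD. The 12 neuronal markers averaged 4.06 to 4.41 on all arrays, about the level of the 40th percentile of an array (4.16 to 4.34), with 0 of the 4 that passed the filter called in any comparison. Neutrophil markers were highest on Trem2-/- 1 (5.82) and Trem2-/-5XFAD 1 (5.99), and the 7 border macrophage markers averaged 5.47 to 6.40 in 5XFAD, 6.51 to 7.36 in WT, 6.78 to 8.07 in Trem2-/- and 6.68 to 7.37 in Trem2-/-5XFAD. Xist exceeded the Y-linked transcripts in 3 of 4 WT, 3 of 4 Trem2-/-, 1 of 5 5XFAD and 0 of 6 Trem2-/-5XFAD arrays, so sex and the 5XFAD genotype were partly confounded. The part of any of these in the results was not tested.

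Promoters of 4 of the genes are shown, 3 of them called in the results, because their windows hold letters that are more frequent among these genes than among all promoters. They come from RefSeq (build GRCm38.p6) and run from 250 bases before to 50 after the start of the gene, read on the gene's own strand. Uqcr11 (complex III), Cox8a (complex IV) and Atp5md (complex V) are the called genes of their complexes with the ETS letters and the largest difference between 5XFAD and WT, and Cox6a1 is the widely expressed counterpart of Cox6a2. Capitals mark matches, on either strand, to CCGGAAG (bound by ETS factors such as GABP) or to the NRF1 letters (GCGCA, any base, then GCGC), and in Atp5md also to TATAAA. The windows are chr10:80406772-80407071, chr19:7217567-7217866, chr19:47090598-47090897 and chr5:115348909-115349208, all on the minus strand.
Uqcr11: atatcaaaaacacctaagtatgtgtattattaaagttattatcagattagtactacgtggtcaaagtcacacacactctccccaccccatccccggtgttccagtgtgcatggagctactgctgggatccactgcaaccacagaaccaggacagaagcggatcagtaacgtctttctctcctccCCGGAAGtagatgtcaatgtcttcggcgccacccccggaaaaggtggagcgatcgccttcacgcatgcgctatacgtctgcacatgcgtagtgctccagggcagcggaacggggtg
Cox8a: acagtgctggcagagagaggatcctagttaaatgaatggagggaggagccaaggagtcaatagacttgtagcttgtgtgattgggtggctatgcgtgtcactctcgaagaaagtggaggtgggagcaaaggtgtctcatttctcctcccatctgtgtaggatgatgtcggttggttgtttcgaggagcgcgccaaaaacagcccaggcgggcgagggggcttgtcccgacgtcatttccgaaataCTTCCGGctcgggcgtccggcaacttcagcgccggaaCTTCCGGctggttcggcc
Atp5md: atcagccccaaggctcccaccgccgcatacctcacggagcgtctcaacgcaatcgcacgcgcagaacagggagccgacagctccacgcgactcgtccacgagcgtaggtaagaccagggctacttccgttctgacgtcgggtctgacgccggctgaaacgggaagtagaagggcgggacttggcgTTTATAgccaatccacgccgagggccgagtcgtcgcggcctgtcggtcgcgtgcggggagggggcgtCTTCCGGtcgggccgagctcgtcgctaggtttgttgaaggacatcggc
Cox6a1: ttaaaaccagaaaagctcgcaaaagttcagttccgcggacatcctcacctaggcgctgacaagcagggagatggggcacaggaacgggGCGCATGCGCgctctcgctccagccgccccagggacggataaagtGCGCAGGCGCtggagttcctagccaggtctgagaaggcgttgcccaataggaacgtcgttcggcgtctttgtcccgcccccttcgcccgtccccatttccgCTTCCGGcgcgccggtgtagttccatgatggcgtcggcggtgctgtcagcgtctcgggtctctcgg
Of the 93 genes, 77 had 82 entries in the promoter table used. CCGGAAG was present in 25.6% of those promoters and in 8.86% of all 32851 promoters, and the NRF1 letters in 25.6% and 4.60%. The YY1 letters AAGATGGC were present in 12.2% against 2.75%, the ERR letters AAGGTCA in 8.54% against 4.72%, TATAAA in 12.2% against 13.6% and the E-box CACGTG in 8.54% against 7.15%. The members' promoters were also richer in CpG, with a median of 20 per window against 7, and in G and C, at 58.5% against 52.7%. CCGGAAG was found in 11 of the 26 genes called in 5XFAD against WT or in Trem2-/-5XFAD against 5XFAD and in 10 of the 51 called in neither, and the NRF1 letters in 4 of 26 and 16 of 51. These letters describe the windows and are neither shown binding sites nor a test.

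In 5XFAD microglia, 28 of the 91 genes tested were higher than in WT and 0 were lower. Across all 12728 genes tested, 15.0% were called in this comparison, 8.23% higher and 6.77% lower. The higher genes were spread over 4 complexes: 7 of 43 for complex I, 5 of 8 for complex III, 9 of 15 tested for complex IV and 7 of 17 for complex V. Complex II had 0 of 8. The median difference over every member was 0.25 for complex I, -0.10 for complex II, 0.44 for complex III, 0.35 for complex IV and 0.33 for complex V, against -0.02 for all genes tested. Of the 93 genes, 75 had a difference above 0, including all 17 of complex V. Among the roles, 26 of the 73 subunits were called (median 0.29) and 0 of the 11 assembly factors were (median -0.10, with 0 at an unadjusted p under 0.05). Here and below, the share of all genes tested at that unadjusted threshold was not computed, so such counts have no background beside them.

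**Figure D1:**
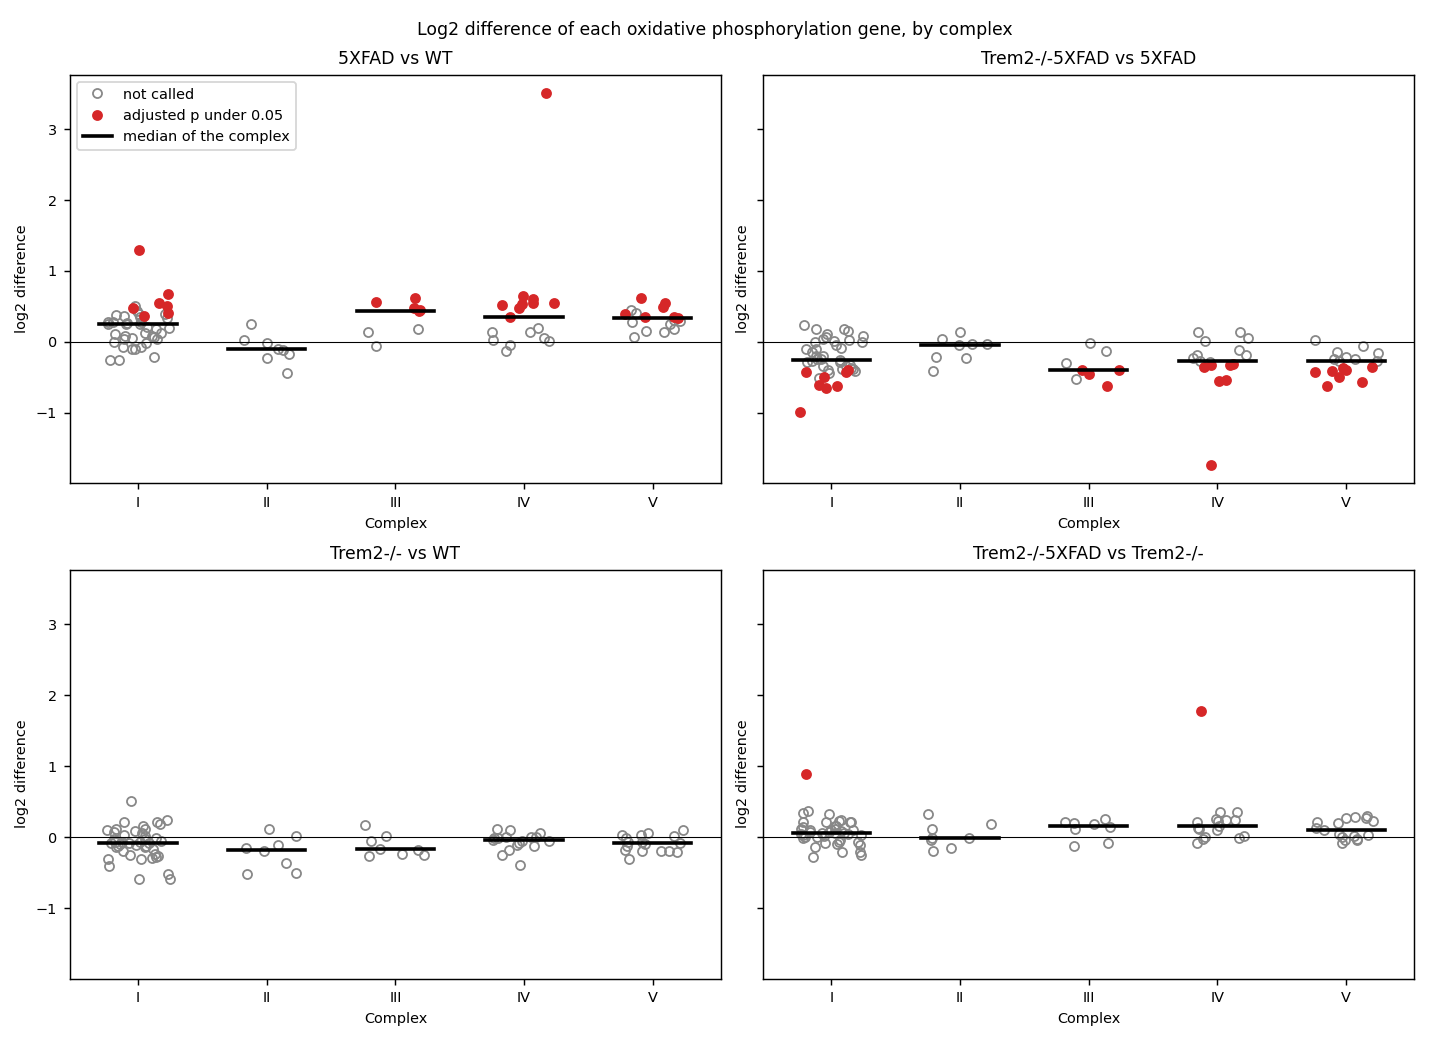
Log2 difference of each of the 93 genes (points, grouped by complex on the x axis) in 4 comparisons; filled points had an adjusted p under 0.05 and black lines are the medians over all members of a complex. In 5XFAD against WT the medians of complexes I, III, IV and V lie between 0.25 and 0.44 and that of complex II at -0.10, in Trem2-/-5XFAD against 5XFAD they lie between -0.40 and -0.04, and the lower panels hold 0 and 2 filled points.

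The number of calls differed with the arrays and covariates used. The share of all genes called in each setting is not given, and smaller sets of arrays also have fewer samples. Without WT 1, WT 2, 5XFAD 1 and 5XFAD 2, the arrays high in salivary gland transcripts, 9 members were called, all higher, and the complex I median was 0.09. Adding the level of other brain cells as a covariate, whose lists include genes that differ by genotype such as Gfap, left 7, all higher, with complex medians of 0.21, -0.09, 0.37, 0.38 and 0.32 for complexes I to V. Among arrays with Y-linked signal alone 7 were called, 6 higher and 1 lower, and among arrays with Xist signal alone 4, all higher. The complex III, IV and V medians without the 4 arrays were 0.40, 0.39 and 0.29. The arrays with Y-linked signal include 1 WT array, and those with Xist signal 1 5XFAD array.

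By array, the mean level of the 9 complex IV subunit genes was 9.95 to 10.19 in WT and 10.40 to 10.66 in 5XFAD, and that of the 17 complex V genes was 9.84 to 10.05 in WT and 10.15 to 10.41 in 5XFAD. For complex III the ranges were 8.95 to 9.09 and 9.23 to 9.61. These 3 sets did not overlap between the groups. The 35 complex I subunit genes averaged 8.60 to 8.75 in WT, against 9.15, 9.03 and 8.94 on 5XFAD 1 to 3 and 8.74 and 8.81 on 5XFAD 4 and 5, so that 5XFAD 4 fell inside the WT range. The 4 complex II subunit genes averaged 8.40 to 8.58 in WT and 8.30 to 8.70 in 5XFAD and overlapped. On the array with conflicting labels the same means were 8.51, 8.24, 8.93, 9.96 and 9.87 for complexes I to V.

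**Figure D2:**
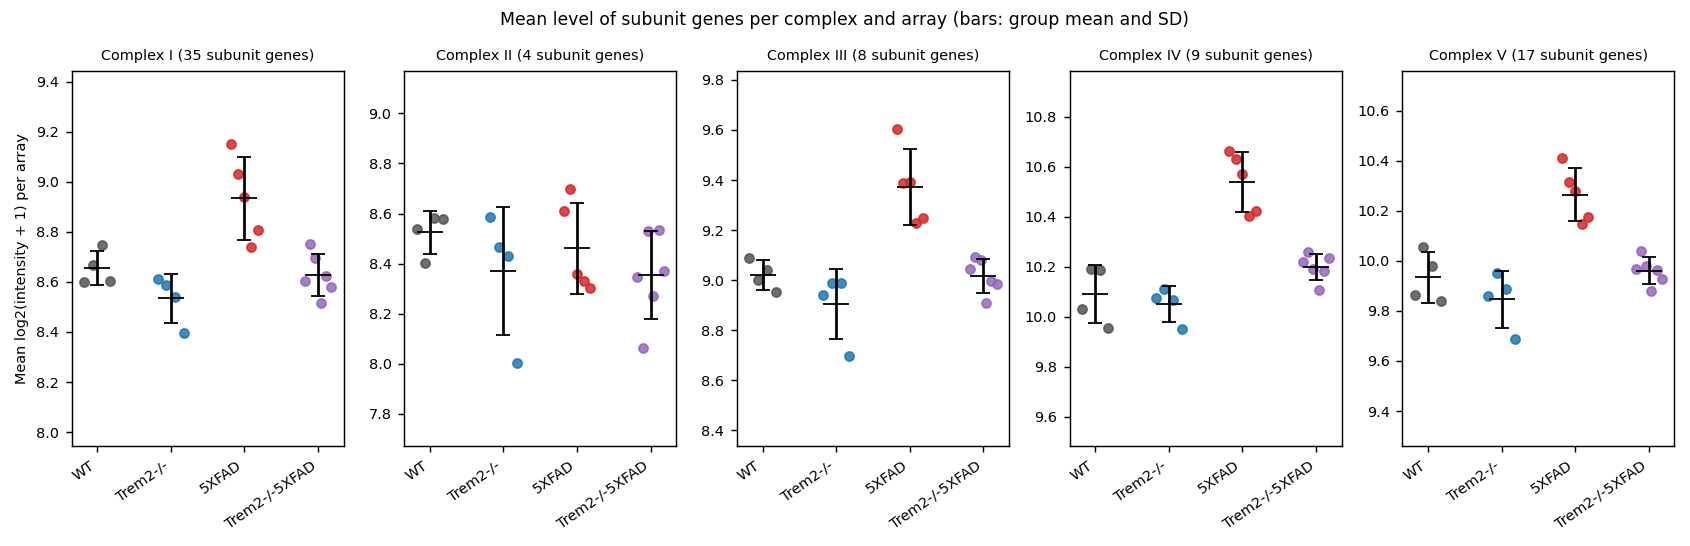
Mean log2(intensity + 1) of the subunit genes of each complex on each array (points), with the group mean and SD (bars), for the 4 genotypes. The 5XFAD arrays lie above all WT arrays for complexes III, IV and V and overlap them for complexes I and II, and the Trem2-/-5XFAD arrays lie below the 5XFAD arrays for complexes III, IV and V. Axes do not start at 0 and levels are not comparable between panels.

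The largest difference of all 93 genes was that of Cox6a2, the isoform of cytochrome c oxidase subunit 6A known from heart and skeletal muscle. Its level was 7.82, 5.81, 7.54 and 6.86 on the WT arrays and 10.81, 10.60, 10.32, 10.45 and 10.41 on the 5XFAD arrays. The groups were far apart, and WT 2 was the lowest array of the 19. The difference was 3.51 ± 0.27 (SE), an 11.4-fold higher level, with an adjusted p of 6.0e-09. It was called under each of the 38 alternatives run, with values from 3.11 to 4.63. Cox6a1, the isoform expressed in most tissues, was at 11.45 ± 0.10 (SD, n = 4) in WT and 11.65 ± 0.07 (SD, n = 5) in 5XFAD, a difference of 0.20 ± 0.09 (SE) that did not pass the test (adjusted p = 0.14, and 0.034 when a mean-variance trend was allowed).

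Of the other subunits of complex IV, Cox7b, a small subunit encoded on the X chromosome, was at 9.93, 10.65, 10.36 and 10.04 in WT and at 10.96, 10.96, 10.95, 10.77 and 10.81 in 5XFAD. Every 5XFAD array was above every WT array, and the difference was 0.65 ± 0.12 (SE), with an adjusted p of 7.9e-04. It was 0.23 (adjusted p = 0.45) among arrays with Y-linked signal alone and 0.56 (adjusted p = 0.068) with the covariate of other brain cells. Cox5b, a nuclear-encoded zinc-binding subunit singled out after its values were seen, rose from 9.32 ± 0.08 (SD, n = 4) to 9.92 ± 0.14 (SD, n = 5), a difference of 0.60 ± 0.09 (SE) with an adjusted p of 4.6e-05. Cox4i1, the main isoform of subunit 4, rose by 0.53 ± 0.10 (SE, adjusted p = 7.5e-04). Cox7a2 (0.54 ± 0.14), Cox8a (0.48 ± 0.09), Cox6b1 (0.35 ± 0.11) and Cox7a2l (0.52 ± 0.10) were also higher, as was Cox6c (0.54 ± 0.10, named after its values were seen). The call of Cox6b1 was lost without any 1 of WT 1, WT 4, 5XFAD 1 and 5XFAD 2, with adjusted p-values up to 0.11.

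The paralogues of these subunits that are known from lung, testis, muscle or hypoxic cells did not follow. Cox4i2 differed by -0.04 ± 0.14, Cox6b2 by -0.13 ± 0.20, Cox7a1 by 0.05 ± 0.37 and Cox8c by 0.03 ± 0.11 (SE), and none of the 4 passed the test. Their group means in WT and 5XFAD lay between 4.38 and 5.10, near the 40th percentile of the arrays. Cox8b, at 3.80 ± 0.27 (SD, n = 4) in WT and 3.94 ± 0.51 (SD, n = 5) in 5XFAD, and Cox7b2, at 2.66 ± 0.11 and 2.67 ± 0.14, were below the filter. Cox6a2 was thus the single called gene among the 8 restricted isoforms. Ndufa4 differed by 0.06 ± 0.13 and its paralogue Ndufa4l2 by -0.07 ± 0.11 (SE), neither called.

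In complex I the largest increase was that of Ndufa1, a small membrane subunit encoded on the X chromosome. Its level was 8.52, 9.58, 8.95 and 8.84 in WT and 10.48, 10.48, 10.10, 10.15 and 10.15 in 5XFAD, again without overlap. The difference was 1.30 ± 0.19 (SE), 2.46-fold, with an adjusted p of 4.7e-05. It was 0.64 among the arrays with Y-linked signal, where WT is represented by 1 array. Among those with Xist signal, where 5XFAD is represented by 1 array, it was 1.70. Ndufb2, another accessory subunit of the membrane arm, was at 7.02, 7.68, 7.90 and 7.05 in WT and 8.38, 8.03, 8.16, 7.98 and 7.88 in 5XFAD. WT 3 lay just above 5XFAD 5. The difference was 0.67 ± 0.17 (SE, adjusted p = 0.0075) and 0.53 (adjusted p = 0.13) without the 4 arrays named above. The other called genes of complex I were Ndufa2, Ndufa3, Ndufa12, Ndufb8 and Ndufv3, with differences between 0.36 and 0.55.

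All 7 were accessory subunits, of 28 measured (median 0.31). The 6 subunits of the catalytic core that are encoded in the nucleus (Ndufs1, Ndufs3, Ndufs7, Ndufs8, Ndufv1 and Ndufv2), which carry the flavin and most of the iron-sulfur clusters, had 0 called and a median of 0.13, with differences from -0.26 to 0.21. At an unadjusted p under 0.05, 15 of 28 accessory subunits were higher and 1 of 6 core subunits was lower. That was Ndufs8, at 9.12 ± 0.10 (SD, n = 4) in WT and 8.86 ± 0.12 (SD, n = 5) in 5XFAD. Its highest 5XFAD array, at 8.96, lay below every WT array, and the difference was -0.26 ± 0.11 (SE, adjusted p = 0.12). This grouping was made after the values were seen, and the difference between core and accessory subunits was not tested.

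In complex III, 5 of the 8 genes were called. Uqcrb, which lies close to the ubiquinone-binding site, was at 8.62, 8.03, 8.27 and 8.67 in WT and 9.68, 8.88, 9.15, 8.70 and 8.66 in 5XFAD. The highest value was that of 5XFAD 1, and 5XFAD 5 fell below WT 4. The difference was 0.62 ± 0.19 (SE, adjusted p = 0.027) and was not called without any 1 of WT 2, WT 3, 5XFAD 1 and 5XFAD 3. Uqcr11, a small membrane subunit, was at 9.64, 9.65, 9.76 and 9.36 in WT and 10.38, 10.40, 10.16, 9.82 and 10.08 in 5XFAD, which did not overlap, and differed by 0.56 ± 0.13 (SE, adjusted p = 0.0035). Without the 4 arrays its difference was 0.46 (adjusted p = 0.086). Uqcr10, Uqcrh and Uqcrq were higher by 0.43 to 0.47. The larger core proteins Uqcrc1 (-0.05 ± 0.10) and Uqcrc2 (0.15 ± 0.11) and the Rieske iron-sulfur protein Uqcrfs1 (0.19 ± 0.15) did not pass the test.

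In complex V the largest increases, by the probe sets kept, were in 2 small proteins of the membrane sector. Atp5md, which helps ATP synthase form dimers, was at 9.11, 9.61, 9.19 and 9.07 in WT and 10.00, 9.77, 9.89, 9.91 and 9.74 in 5XFAD. The groups did not overlap and differed by 0.62 ± 0.13 (SE, adjusted p = 0.0018). Among arrays with Y-linked signal, where WT is represented by 1 array, the difference was 0.22. The Atp5md probe sets that were not kept differed by 0.97 and 0.37 between 5XFAD and WT over all arrays of the groups. Atp5mpl was at 11.03, 10.71, 11.07 and 10.74 in WT and 11.56, 11.48, 11.40, 11.35 and 11.38 in 5XFAD, and differed by 0.55 ± 0.11 (SE, adjusted p = 0.0015). The other higher genes were Atp5d, Atp5e, Atp5h, Atp5j and Atp5l, with differences of 0.33 to 0.49. By position in the enzyme, grouped after the values were seen, 2 of 5 genes of the F1 head and central stalk were higher (median 0.29), 0 of 3 of the c-ring (0.25, with 2 at an unadjusted p under 0.05), 2 of 4 of the peripheral stalk (0.32) and 3 of 5 small membrane subunits (0.45). The c-ring values depend on the probe set kept. For Atp5g2 the one used differed by 0.25 and the others by 0.52 and 0.15. For Atp5g1 they were 0.41 and -0.11.

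Complex II stood at the other end. Sdha, the flavoprotein that oxidises succinate, was at 8.68, 8.48, 8.53 and 9.01 in WT and 8.87, 9.09, 8.71, 9.12 and 8.84 in 5XFAD, and Sdhb, the iron-sulfur subunit, at 8.11, 8.29, 8.30 and 8.28 against 8.23, 8.60, 8.29, 8.16 and 8.06. Both overlapped between the groups, with differences of 0.25 ± 0.13 and 0.02 ± 0.14 (SE). The membrane anchors Sdhc (-0.43 ± 0.21) and Sdhd (-0.09 ± 0.14) and the assembly factors Sdhaf1 (-0.16 ± 0.18), Sdhaf2 (-0.01 ± 0.15), Sdhaf3 (-0.23 ± 0.14) and Sdhaf4 (-0.11 ± 0.22) also did not pass. limma called 0 of the 8, and 0 had an unadjusted p under 0.05.

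**Figure D3:**
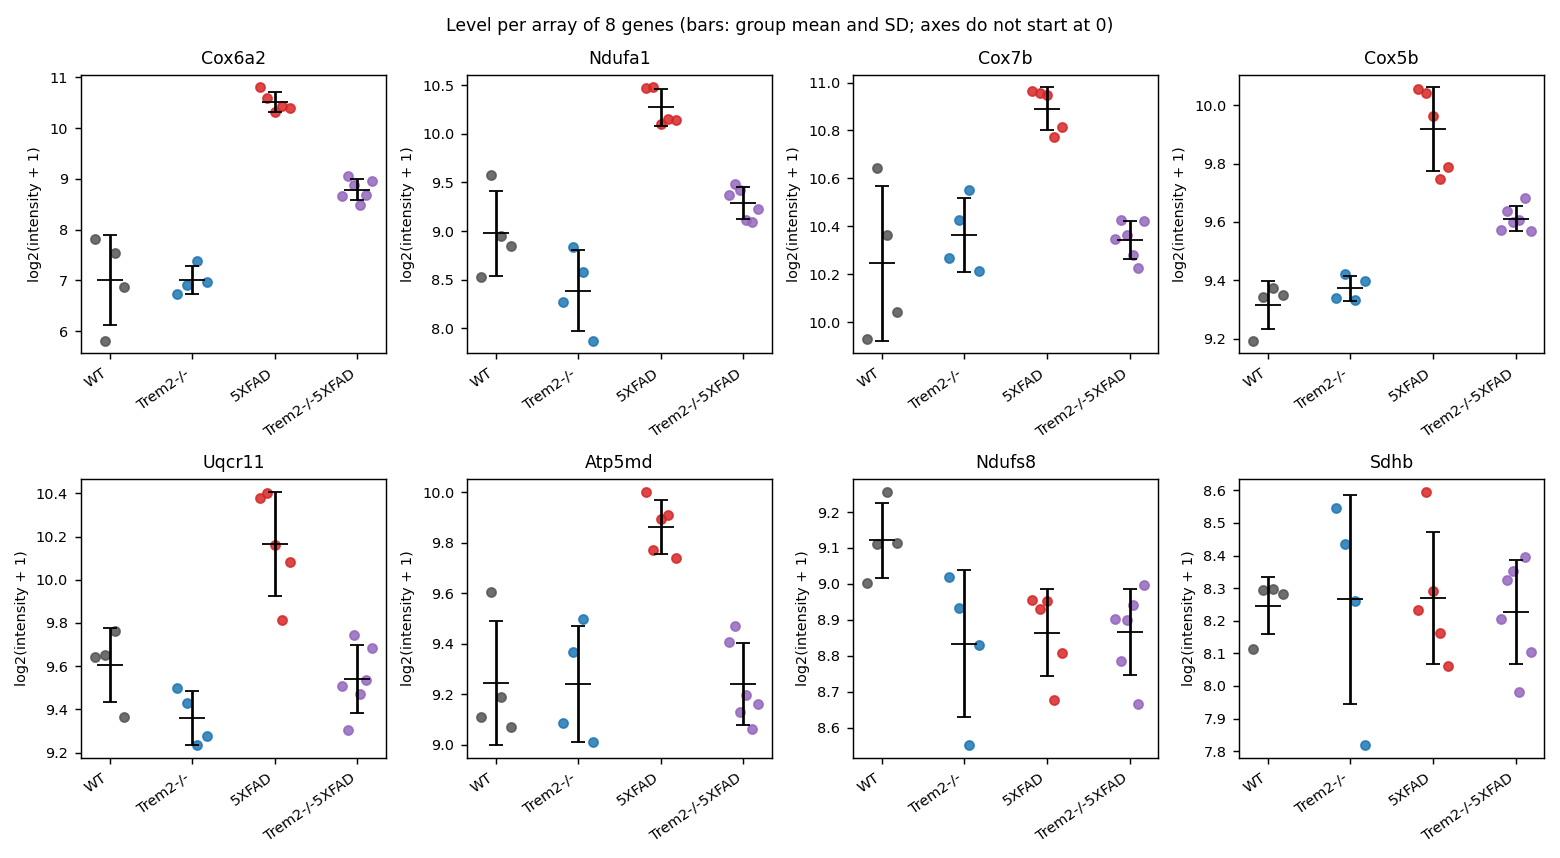
Log2(intensity + 1) on each array (points) of 8 genes, with group mean and SD (bars). Cox6a2, Ndufa1, Cox7b, Cox5b, Uqcr11 and Atp5md have every 5XFAD array above every WT array, whereas Sdhb overlaps between the groups and Ndufs8 has its 5XFAD arrays below the WT arrays.

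The groups did not overlap in 24 of the tested members with 5XFAD higher, where 7.13% of all genes tested did so, and in 1 with 5XFAD lower (6.27% of all genes). Differences around the threshold were of like size: Atp5d, called, differed by 0.33 ± 0.11 (SE, adjusted p = 0.037), and Ndufb9, not called, by 0.39 ± 0.13 (SE, adjusted p = 0.054).

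The question of the second comparison, Trem2-/-5XFAD against 5XFAD, is what the loss of Trem2 changes in microglia that meet amyloid. The 5XFAD arrays are shared with the comparison above, so the counts are not independent. Here 27 of the 91 genes tested were lower without Trem2 and 0 were higher, where 7.68% of all genes tested were called, 4.46% lower and 3.21% higher. By complex, 8 genes of complex I, 0 of complex II, 4 of complex III, 7 of complex IV and 8 of complex V were lower. The medians over all members were -0.26, -0.04, -0.40, -0.27 and -0.27 in that order, against 0.04 for all genes tested. Of the 93 genes, 75 had a difference below 0. In the same comparison 6 of the 7 border macrophage markers (median 0.94) and 4 of the 9 microglial markers (median 0.21) were called higher, and 3 of the 6 astrocyte markers tested were called lower (median -0.15); their part in the result was not tested.

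For the settings that follow, the share of all genes called is again not given. The count fell to 5, all lower, without WT 1, WT 2, 5XFAD 1 and 5XFAD 2, and to 14 without 5XFAD 1 alone. It was 16 after quantile normalization and 19 among arrays with Y-linked signal, again all lower. With other brain cells as a covariate 2 were called, Cox6a2 and Ndufa1, while the complex medians were -0.23, -0.06, -0.35, -0.25 and -0.32. Of the genes whose calls were lost there, Atp5md was at -0.62 (adjusted p = 0.052) and Ndufb2 at -0.76 (adjusted p = 0.060). The complex medians without the 4 arrays were -0.17, 0.03, -0.33, -0.22 and -0.19 for complexes I to V.

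Cox6a2 fell furthest. Its level on the 6 Trem2-/-5XFAD arrays ran from 8.50 through a median of 8.77 to 9.05, below all 5XFAD arrays (10.32 to 10.81) and above all WT arrays (5.81 to 7.82). The difference was -1.73 ± 0.24 (SE, adjusted p = 5.5e-05), and it was called under every alternative run, between -1.78 and -1.41. Ndufa1 ran from 9.09 through 9.30 to 9.49 and lay below every 5XFAD array, with a difference of -0.99 ± 0.17 (SE, adjusted p = 6.7e-04) that was called under every alternative run. Cox7b ran from 10.23 to 10.43 in Trem2-/-5XFAD, below the lowest 5XFAD array at 10.77. It differed by -0.55 ± 0.11 (SE, adjusted p = 0.0030).

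Among the other subunits, Ndufb2 fell by 0.65 ± 0.15 (SE, adjusted p = 0.0085) and was no longer called without the 4 arrays (-0.57, adjusted p = 0.058). In complex III, Uqcr11 fell by 0.63 ± 0.11 (SE, adjusted p = 0.0011), from 9.82 to 10.40 in 5XFAD to between 9.30 and 9.74, and Uqcr10 by 0.45 ± 0.11 (SE, adjusted p = 0.0093). Uqcrh and Uqcrq were lower too, and Uqcrb (-0.53 ± 0.17, adjusted p = 0.063) did not pass. In complex V, Atp5md fell by 0.62 ± 0.12 (SE, adjusted p = 0.0013), from 9.74 to 10.00 in 5XFAD to between 9.06 and 9.47. Atp5k, another small membrane subunit, fell by 0.56 ± 0.14 (SE, adjusted p = 0.016), a call that was lost without 5XFAD 1. All 5 small membrane subunits of ATP synthase were lower (median -0.41), as were 8 of the 28 accessory subunits of complex I (-0.37) and 0 of the 6 core subunits (-0.07, with 1 lower at an unadjusted p under 0.05).

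In complex IV, Cox4i1 (-0.35 ± 0.09), Cox7a2 (-0.54 ± 0.12), Cox8a (-0.33 ± 0.08), Cox7a2l (-0.32 ± 0.09) and Cox5b (-0.31 ± 0.08) were lower without Trem2. The call of Cox4i1 was lost without 5XFAD 1, and that of Cox7a2l without any 1 of 5XFAD 1, 2 and 4 and Trem2-/-5XFAD 1, 4, 5 and 6. Cox6a1 (-0.19 ± 0.08), Cox6b1 (-0.27 ± 0.10) and Ndufa4 (-0.09 ± 0.11) did not pass the test, nor did Cox4i2 (0.14 ± 0.13), Cox6b2 (-0.11 ± 0.18), Cox7a1 (0.06 ± 0.34), Cox8c (0.14 ± 0.10) and Ndufa4l2 (0.11 ± 0.10). Complex II again had 0 called and 0 at an unadjusted p under 0.05. Sdha differed by -0.22 ± 0.12, Sdhb by -0.04 ± 0.12, Sdhc by 0.05 ± 0.19, Sdhd by -0.22 ± 0.13 and the 4 Sdhaf genes by -0.40 to 0.14. Groups did not overlap in 28 tested members with Trem2-/-5XFAD lower, where 4.11% of all genes tested did so, and in 0 with it higher (3.03%).

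Without the 5XFAD transgenes, the loss of Trem2 gave no call. In Trem2-/- against WT limma called 0 of the 91 members, where 0.613% of all genes tested were called. At an unadjusted p under 0.05, 11 members were lower and 0 higher in the main fit, a count not made under the alternatives. The number called at an adjusted p under 0.05 was 1, lower, without Trem2-/- 3. It was 0 without WT 1, WT 2, 5XFAD 1 and 5XFAD 2, and without Trem2-/- 1 and Trem2-/-5XFAD 1. Under the other alternatives with more than 1 array in each group it was also 0. Of the border macrophage markers 1 of 7 was called higher. The medians were -0.08, -0.18, -0.17, -0.04 and -0.09 for complexes I to V, against -0.01 for all genes. Cox6a2 was at 6.74, 6.91, 7.39 and 6.98 in Trem2-/-, within the WT range, and differed by less than 0.01 with an SE of 0.28. Ndufa1 was at 8.27, 8.83, 8.58 and 7.87 and overlapped WT, with a difference of -0.59 ± 0.20 (SE, adjusted p = 0.21). Groups did not overlap in 6 members with Trem2-/- lower (2.69% of all genes tested) and in 0 with it higher (3.10%).

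In mice without Trem2, the 5XFAD transgenes gave 2 calls, both higher, where 2.18% of all genes tested were called and 1.63% called higher. Cox6a2 rose by 1.78 ± 0.26 (SE, adjusted p = 3.0e-04), from 6.74 to 7.39 in Trem2-/- to between 8.50 and 9.05, and was called under every alternative run. Ndufa1 rose by 0.90 ± 0.18 (SE, adjusted p = 0.0094), from 7.87 to 8.83 in Trem2-/- to between 9.09 and 9.49. That call was lost at differences of like size, 0.86 with the covariate of other brain cells (adjusted p = 0.12), 0.94 with that of sex signal (adjusted p = 0.056) and 0.84 without Trem2-/- 1 and Trem2-/-5XFAD 1 (adjusted p = 0.072). The next in size among the fixed isoform sets was Cox4i1, at 0.35 ± 0.10 (SE, adjusted p = 0.059), which 8 of the alternatives called. The complex medians were 0.06, -0.01, 0.16, 0.16 and 0.10, against 0.02 for all genes tested, and 9 members had groups that did not overlap with Trem2-/-5XFAD higher (3.95% of all genes tested) and 0 with it lower (2.06%).

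Whether the change with 5XFAD itself differed with Trem2 was tested by the interaction, the change in Trem2-/- mice minus the change in mice with Trem2. It was called for 2 members, both below 0, where 2.60% of all genes tested were called, 1.58% below 0 and 1.02% above. Cox6a2 had an interaction of -1.73 ± 0.37 (SE, adjusted p = 0.012), called under every alternative run and ranging from -2.82 to -1.33. Cox7b had -0.67 ± 0.17 (SE, adjusted p = 0.039), a call that 18 of the alternatives ended, among them quantile normalization, arrays with Y-linked signal alone (-0.10, adjusted p = 0.92) and 13 of the 19 settings without a single array. Ndufa1 had -0.40 ± 0.26 (SE, adjusted p = 0.54), Atp5md -0.62 ± 0.18 (SE, adjusted p = 0.072) and Uqcr11 -0.38 ± 0.18 (SE, adjusted p = 0.32), so a difference between mice with and without Trem2 was not shown for these. At an unadjusted p under 0.05, 15 members were below 0 and 0 above, with no share of all genes computed at that threshold. Of all 93 genes, 70 had an interaction below 0, against 5862 of the 12728 genes tested.

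**Figure D4:**
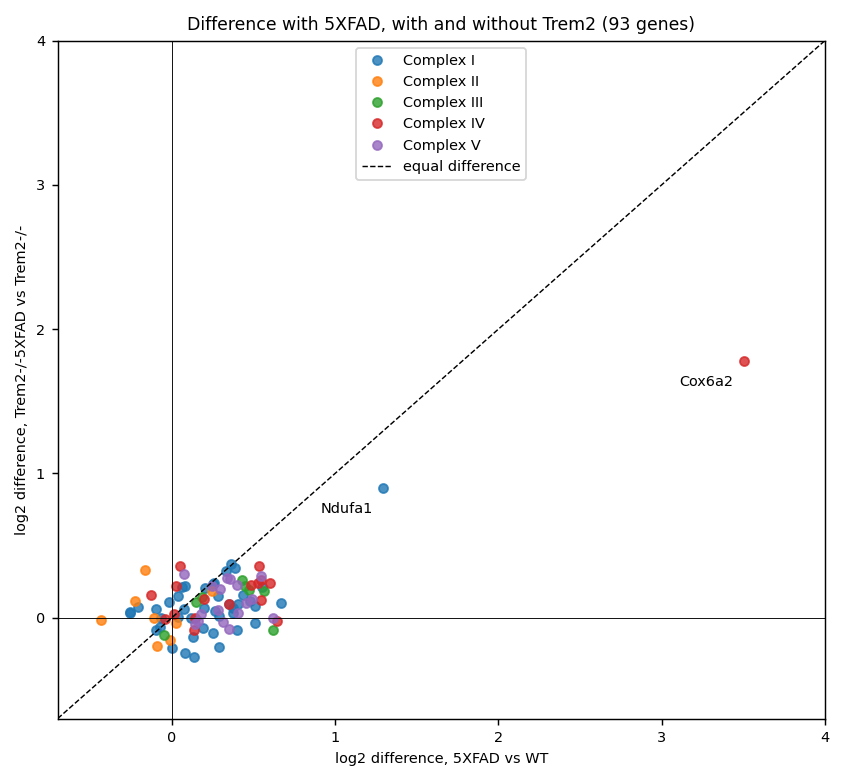
Log2 difference with 5XFAD in mice with Trem2 (x axis, 5XFAD against WT) and without (y axis, Trem2-/-5XFAD against Trem2-/-) for the 93 genes, coloured by complex, with a dashed line of equal differences. Cox6a2 lies at 3.51 and 1.78, Ndufa1 at 1.30 and 0.90, and 70 of the 93 genes lie below the line.

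The 2 comparisons on that plot share no array. Across the 93 genes Pearson's r between them was 0.75, and 0.44 without Cox6a2, given as a description since genes of the same arrays are not independent replicates. The 28 genes called in 5XFAD against WT had a median difference of 0.52 there, the comparison that chose them, and 0.21 in mice without Trem2.

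Other genes of the pathway were read from lists of textbook members. Of the regulators of mitochondrial biogenesis, 16 were measured and 15 tested, and 0 were called in any comparison; in 5XFAD against WT their median was -0.10 and 1 had an unadjusted p under 0.05. Nrf1, a transcription factor of nuclear respiratory genes, differed by -0.39 ± 0.15 (SE, adjusted p = 0.098) and Pprc1, a coactivator of the same programme, by 0.40 ± 0.19 (SE, adjusted p = 0.19). In Trem2-/-5XFAD against 5XFAD the smallest p-values were those of the deacetylase Sirt1 (0.37 ± 0.14) and the mitochondrial RNA polymerase Polrmt (0.28 ± 0.12), neither called.

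Among 31 assembly factors outside the prefixes that were tested, 2 were higher and 1 lower in 5XFAD than in WT, shares below those of all genes tested (8.23% higher and 6.77% lower). Coa5, a factor of complex IV, was higher by 0.67 ± 0.14 (SE, adjusted p = 0.0025) and so was the copper chaperone Cox17, by 0.56 ± 0.12, whereas Taco1, an activator of COX1 translation, was lower by 0.75 ± 0.12 (SE). In Trem2-/-5XFAD against 5XFAD, Cox17 fell by 0.55 ± 0.11 (SE, adjusted p = 0.0028) and Uqcc2, a complex III factor, by 0.58 ± 0.15 (SE, adjusted p = 0.019), and 0 were higher. Of 19 genes of electron and ATP carriers, 5 were higher in 5XFAD and 0 lower. The phosphate carrier Slc25a3 rose by 0.52 ± 0.09 (SE, adjusted p = 4.6e-04) and the ADP/ATP carrier Slc25a4 by 0.53 ± 0.11 (SE, adjusted p = 0.0017), and cytochrome c (Cycs), Coq7 and Vdac2 were the others. In Trem2-/-5XFAD against 5XFAD 0 of the 19 were called, with 1 at an unadjusted p under 0.05, and in Trem2-/-5XFAD against Trem2-/- Slc25a3 was higher by 0.37 ± 0.09 (SE, adjusted p = 0.035).

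Of 19 genes of the citric acid cycle and pyruvate entry, 2 were higher in 5XFAD than in WT, the succinyl-CoA ligase subunits Sucla2 (0.44 ± 0.13) and Suclg2 (0.44 ± 0.13), and 1 was lower, the isocitrate dehydrogenase subunit Idh3g (-0.49 ± 0.10, SE). These counts were near the shares of all genes tested, 8.23% higher and 6.77% lower. None of the 19 was called in Trem2-/-5XFAD against 5XFAD, where 6 were lower and 1 higher at an unadjusted p under 0.05. Of 77 genes of the mitochondrial ribosome, 5 were higher, among them Mrps18a (0.47 ± 0.14), and 1, Mrps2, was lower (-0.41 ± 0.11), again below the shares of all genes, and the list's median was 0.06. In Trem2-/-5XFAD against 5XFAD 4 were lower, where 4.46% of all genes were, led by Mrpl52 (-0.56 ± 0.10) and Mrps21 (-0.67 ± 0.14). The 2 mitochondrially encoded subunits with a probe set of their own, ND3 of complex I and COX2 of complex IV, differed by -0.11 ± 0.08 and -0.12 ± 0.10 (SE) in 5XFAD against WT and were called in no comparison, with 0 at an unadjusted p under 0.05 in each.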

How the data were processed

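Gene expression was measured on 20 single-colour arrays, each hybridised with biotin-labelled cRNA from 2 ng of RNA of sorted microglia, per the labels' protocols. The deposited values are linear intensities per probe set, with array medians of 25.7 to 28.6, and the sources used here do not give how the authors normalized them or with which software. Arrays have no read depth, so their number limits the precision. Probe sets were named from the platform annotation: of 24679, 21354 had 1 gene, 1275 several and 2050 none, and 21277 of the named ones matched RefSeq. Only probe sets with 1 gene were used, which leaves out genes such as Cox7c and Ndufb4. For a gene with several probe sets (18 members) the one with the highest mean over all arrays was kept.

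Values were taken as log2(intensity + 1), which understates changes of low genes. Genes above the 40th percentile of an array on at least 4 arrays were tested (12728). limma 3.58.1 in R 4.3.3 was fitted with 1 model over the 19 arrays with a group and 5 contrasts, with Benjamini-Hochberg adjustment over all genes tested, and the procedure was tested on simulated data. The medians per complex include every member, tested or not, and have no test. Named genes were, per contrast and complex, the 2 members with the largest called increase and decrease, the called members of the interaction, the fixed isoform sets, all Sdh genes and the 2 genes with the smallest p of each other list; genes named beyond these were singled out after their values were seen. The members, lists and tests were chosen with earlier results of these data known. The main fit did not pair arrays by the numbers in the labels, and whether some arrays were prepared together was not tested. Alternatives were other pseudocounts, filters, normalizations, probe set rules, covariates, array weights and sets of arrays.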

Additional observations from a re-analysis of the deposited data

Results flagged for a closer look

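In 148 sets of 4 to 6 arrays of a group, 5 had an array that stood apart by Dixon's criterion, where chance alone marks about 1 set in 20. Trem2 was at 11.14 on WT 4 and at 11.36 to 11.39 on the other WT arrays. Sdhb was at 8.11 on WT 1 and at 8.28 to 8.30 on the others. The mean of the complex III subunit genes was 8.70 on Trem2-/- 4 and 8.94 to 8.99 on the other Trem2-/- arrays. The assembly factor Sdhaf3 was at 5.83 on 5XFAD 3 and at 5.44 to 5.48 on the other 5XFAD arrays. Cox6b1 was at 11.39 on Trem2-/-5XFAD 4 and at 11.60 to 11.68 on the others.

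The change with 5XFAD differed with Trem2 by limma's interaction test for 2 of the 91 members tested, where 2.60% of all genes tested were called. They were Cox6a2 (-1.73, adjusted p = 0.012) and Cox7b (-0.67, adjusted p = 0.039). The Cox7b call was kept under 18 of 36 alternatives and was lost in 13 of the settings without a single array.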

How the results depend on the processing

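Single genes were followed through the alternatives only where they were members named by rule. Of their 29 called differences, 0 changed sign under any alternative run. Differences of the other genes in the text, such as Cox5b and Cox6c, are not given under the alternatives. Of the 92 followed differences that were not called, 48 changed sign under at least 1 alternative. Of the 25 complex medians 8 did, among them all of complex II but that of Trem2-/- against WT. Among the followed gene differences, 0 was called with its sign turned. The 28 calls of 5XFAD against WT became 18 when only these 2 groups were fitted, 7 with the covariate of other brain cells, 9 without WT 1, WT 2, 5XFAD 1 and 5XFAD 2, 7 on arrays with Y-linked signal alone and 4 on arrays with Xist signal alone (both sets chosen after seeing the data); leaving out 1 array gave 18 (without 5XFAD 1) to 33. The 27 of Trem2-/-5XFAD against 5XFAD became 16 after quantile normalization, 2 with that covariate and 5 without the 4 arrays, and 14 (without 5XFAD 1) to 34 without 1 array. The 0 of Trem2-/- against WT became 1 with Y-linked signal alone and 0 to 1 without 1 array (1 without Trem2-/- 3). The 2 of Trem2-/-5XFAD against Trem2-/- became 4 with array weights, 1 with the covariate of other brain cells, of sex signal or without Trem2-/- 1 and Trem2-/-5XFAD 1, and 2 to 3 without 1 array. The 2 of the interaction became 1 after quantile normalization, with the covariate of other brain cells or of neutrophil markers, without those 2 arrays or with Y-linked signal alone, and 1 to 4 without 1 array. The causes were not tested, though smaller sets of arrays also have fewer samples. The share of all genes called in each setting is not given here.

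Of the complex medians of 5XFAD against WT, complex I was 0.093 without the 4 arrays, complex IV was 0.53 over subunits alone and 0.20 with Ndufa4 and Ndufa4l2 moved into it. On arrays with Xist signal the medians of complexes I, II, IV and V were 0.42, 0.048, 0.55 and 0.52, and with Y-linked signal those of II and V were -0.27 and 0.14. With Y-linked signal alone, Trem2-/- against WT gave -0.25, -0.49, -0.40, -0.22 and -0.34 for complexes I to V, Trem2-/-5XFAD against Trem2-/- gave 0.36 for II and 0.23 for V, and the interaction gave -0.0012, 0.42, 0.051, -0.066 and 0.13. With the covariate of sex signal, complexes I and II were both at 0.20 in Trem2-/-5XFAD against Trem2-/-. WT and Trem2-/- have 1 array each with Y-linked signal and 5XFAD has 1 with Xist signal, and the fit takes these to vary like the other groups.

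The replicate block gave 30, 22, 0, 2 and 2 calls in the 5 contrasts. Arrays of the same number had correlations of -0.10 to 0.17 over 25 pairs, 5 of them above 0.1. Of 19 arrays, 5 correlated best with one of their own number. WT and 5XFAD arrays of the same number were all positive, at 0.10, 0.16, 0.09 and 0.17. The remaining same-number pairs ran from -0.10 to 0.14. WT 1 with 5XFAD 2 was at 0.11 and WT 2 with 5XFAD 1 at 0.13. Whether some arrays were prepared together was not tested. A fit of the interaction on fewer groups was not possible, since it uses all 4. Differences of low genes near background, such as Cox4i2 and Cox8c, are limited by signal.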
